A study of Mus musculus with 8 samples.

Results

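The genes described here are 37 genes that mark the endocardium, the inner lining of the heart, and other endothelium, and they were chosen by name for transcription factors, cell junctions, surface proteins, secreted factors, the response to blood flow, and lymphatic or venous identity. These genes and the other gene lists used below were chosen with earlier results of these data known. Shares of a list set beside the share of all genes are therefore descriptions only. All 37 were found among the 53465 genes of the count table, and all 37 were among the 14451 genes that passed the filter on low counts. The samples were RNA-seq libraries of mouse heart ventricles at embryonic day 9.5, with 4 control samples (WT) and 4 mutant samples (Nrg-1flox;Tie2-Cre, called KO in the labels). In the mutant, a floxed *Nrg1* allele was deleted by a Cre recombinase driven from *Tie2* (*Tek*) regulatory sequence, which is active in endothelium and endocardium and also in blood cells and in cells descended from them. The labels gave no strain, no sex, no number of embryos for a sample and no genotype of the controls beyond WT. P-values therefore measure the spread between these samples, which may be partly technical. The comparison asks in what state the cells targeted for deletion of *Nrg1* were, as far as RNA of the whole ventricle shows it.

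*Nrg1* encodes neuregulin-1, a growth factor that the endocardium sends to the myocardium, where it is received by ErbB receptors and is needed for trabeculae to form. Endothelial cells are held together by VE-cadherin junctions, and their gene expression is kept up by ETS factors such as Erg and Fli1 and by SoxF factors, the group of Sox7, Sox17 and Sox18. Blood flow acts on these cells through shear stress, which raises the factors Klf2 and Klf4 and the nitric oxide synthase Nos3 and lowers endothelin-1 in many endothelial beds.

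*Nrg1* itself was measured at 11.9, 9.38, 9.94 and 11.7 CPM (counts scaled to library size, here by the TMM method) in WT replicates 1 to 4 and at 5.17, 4.27, 5.11 and 5.93 CPM in the mutant. Every mutant sample lay below every WT sample, and the log2 fold change was -1.07 (SE 0.14, edgeR quasi-likelihood test, FDR 0.00268), an FDR being a p-value adjusted by the Benjamini-Hochberg method over all genes tested. The fold of *Nrg1* was 0.477, and the source of the *Nrg1* RNA that remained in the mutant samples was not tested. Total counts ran from 11852372 to 14360323 in WT and from 12430368 to 14223860 in the mutant. Markers of other cell types were read in the same fit, in which 5.11% of all genes tested were higher and 3.50% lower. All 13 erythroid markers were higher in the mutant, and their summed level was 6763 to 8197 CPM in WT against 20009 to 69253 CPM in the mutant. Macrophage markers summed to 22.8 to 30.4 CPM in WT and 31.6 to 45.7 CPM in the mutant (2 of 6 tested were higher), megakaryocyte markers to 84.0 to 117 and 118 to 329 CPM (2 of 10 higher), and epicardial markers to 206 to 275 and 308 to 510 CPM (2 of 9 higher). Cushion mesenchyme markers summed to 217 to 234 CPM in WT and 143 to 199 CPM in the mutant (1 of 10 was lower), and none of 15 cardiomyocyte markers passed the test, with sums of 40683 to 42824 and 37889 to 42081 CPM. Most markers of the macrophage, megakaryocyte, epicardial and cushion lists did not pass the test. None of these markers was at 0 in every sample, and their part in the results on endothelial genes was not tested.

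Mutant replicate 1 stood apart from the other mutant samples. Hemoglobin genes took 6.26% of its counts, against 1.93%, 3.80% and 3.89% in mutant replicates 2 to 4 and 0.671% to 0.799% in WT. Over the 37 endothelial genes its median distance from the other samples of its group was 0.37 on the log2 scale, beside 0.12 to 0.25 for mutant replicates 2 to 4 and 0.06 to 0.09 for WT. It held the highest or the lowest mutant value of 30 of the 37 genes (18 highest, 12 lowest), against 8, 24 and 12 genes for mutant replicates 2, 3 and 4, of which replicate 3 was the lowest for 19. Results are therefore given with it and, where a call changes, without it.

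In WT ventricles the 37 genes covered a wide range of levels, compared here as CPM per kilobase of exon so that long and short genes can be set side by side. *Plvap*, which forms the diaphragms of fenestrae and caveolae, stood highest at 62.6 ± 1.5 CPM per kilobase (SD, n = 4), followed by the endothelin-converting enzyme *Ece1* at 58.4 ± 4.08. The sample ranges of this pair overlapped (61.1 to 64.7 and 55.3 to 64.1). The VE-cadherin gene *Cdh5* followed at 39.7 ± 1.6, the TGF-beta co-receptor *Eng* at 37.6 ± 0.497 and the sphingosine-1-phosphate receptor *S1pr1* at 31.5 ± 1.73. *Cdh5* and *Eng* also overlapped (37.8 to 41.7 and 37.1 to 38.3). The general endothelial markers *Pecam1* and *Cdh5* were thus well detected, and the endocardial factor *Nfatc1* stood at 7.86 ± 0.642. At the low end were the lymphatic and liver endothelial receptor *Lyve1* at 1.59 ± 0.436, the adhesion receptor *Adgrl4* at 1.57 ± 0.181, the apelin receptor *Aplnr* at 1.17 ± 0.292, *Sox17* at 0.883 ± 0.0896 and the scavenger receptor *Stab2* at 0.10 ± 0.0305. *Stab2* was covered by 7 to 14 counts in each WT sample, so its differences carry a large counting error.

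**Figure D1:**
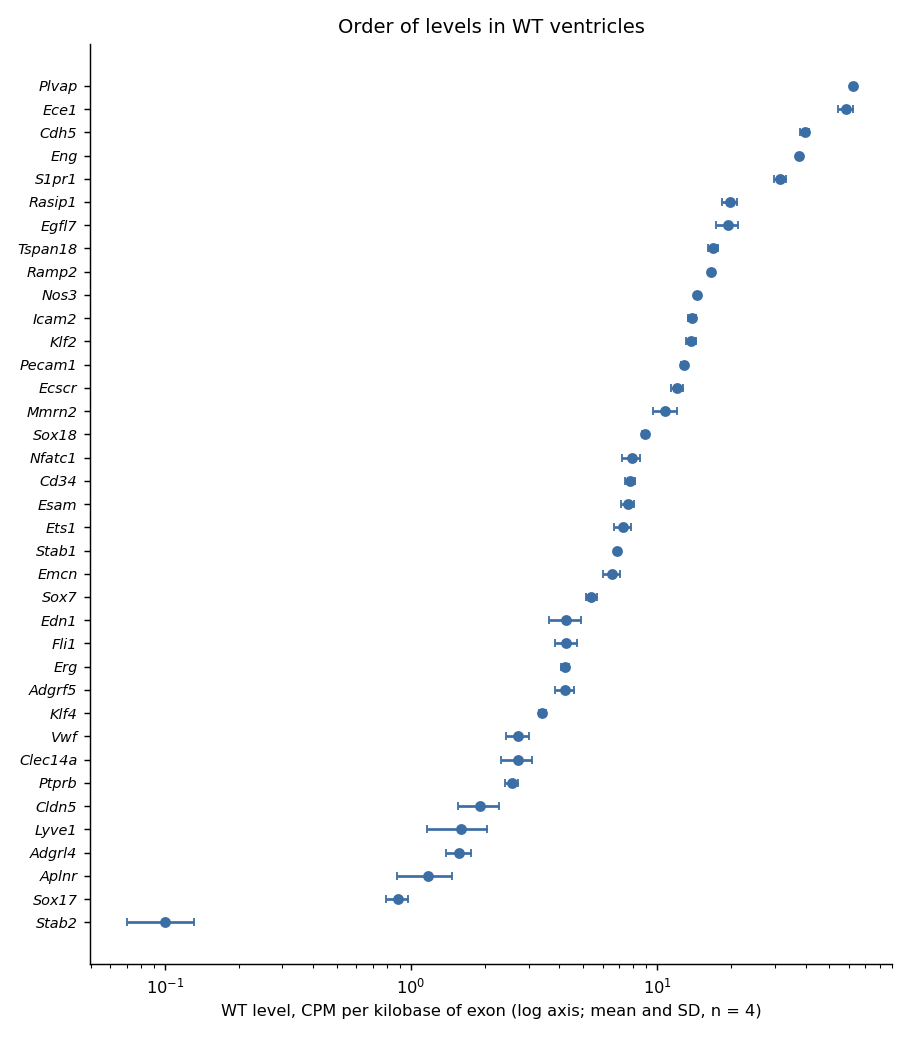
WT level of each of the 37 genes in CPM per kilobase of exon, on a log axis, with points for the mean and bars for the SD of 4 samples. *Plvap* at 62.6 and *Ece1* at 58.4 CPM per kilobase lead the order, and *Sox17* at 0.883 and *Stab2* at 0.10 close it.

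Few of the 37 endothelial genes passed the test. In simulated data with 4 samples in each group the fit recovered 77% of 2-fold changes. A gene that did not pass may thus still have changed. *Sox17* and *Edn1*, which encodes endothelin-1, rose about 2-fold in the mutant, *Ece1* fell by 16.9%, and the other 34 genes did not pass the test. These 3 calls were 8.11% of the 37 genes, beside 8.62% of all genes tested (1245 of 14451). By direction, 2 of 37 were higher against 5.11% of all genes and 1 of 37 was lower against 3.50% of all genes. The median log2 fold change was -0.12 over the 37 genes and -0.0014 over all genes tested, and 27 of the 37 values lay below 0 (73.0%, against 50.3% of all genes). With 1 sample left out the median over the 37 genes ran from -0.13 to -0.06, the latter without mutant replicate 2. Every mutant value lay below every WT value for 4 of the 37 genes (*Ece1*, *Nos3*, *Rasip1* and *Tspan18*), a pattern that 9.45% of all genes showed, and above every WT value for *Sox17* and *Edn1*, a pattern that 9.52% of all genes showed. An unadjusted p under 0.05 was found for 11 of the 37 genes and for 3607 of the 14451. The level summed over the 37 genes was 1909 to 2013 CPM in WT and 1790 to 1917 CPM in the mutant, ranges that overlapped slightly. In RNA of whole ventricles, fewer endothelial cells and less of their RNA in each cell cannot be told apart.

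**Figure D2:**
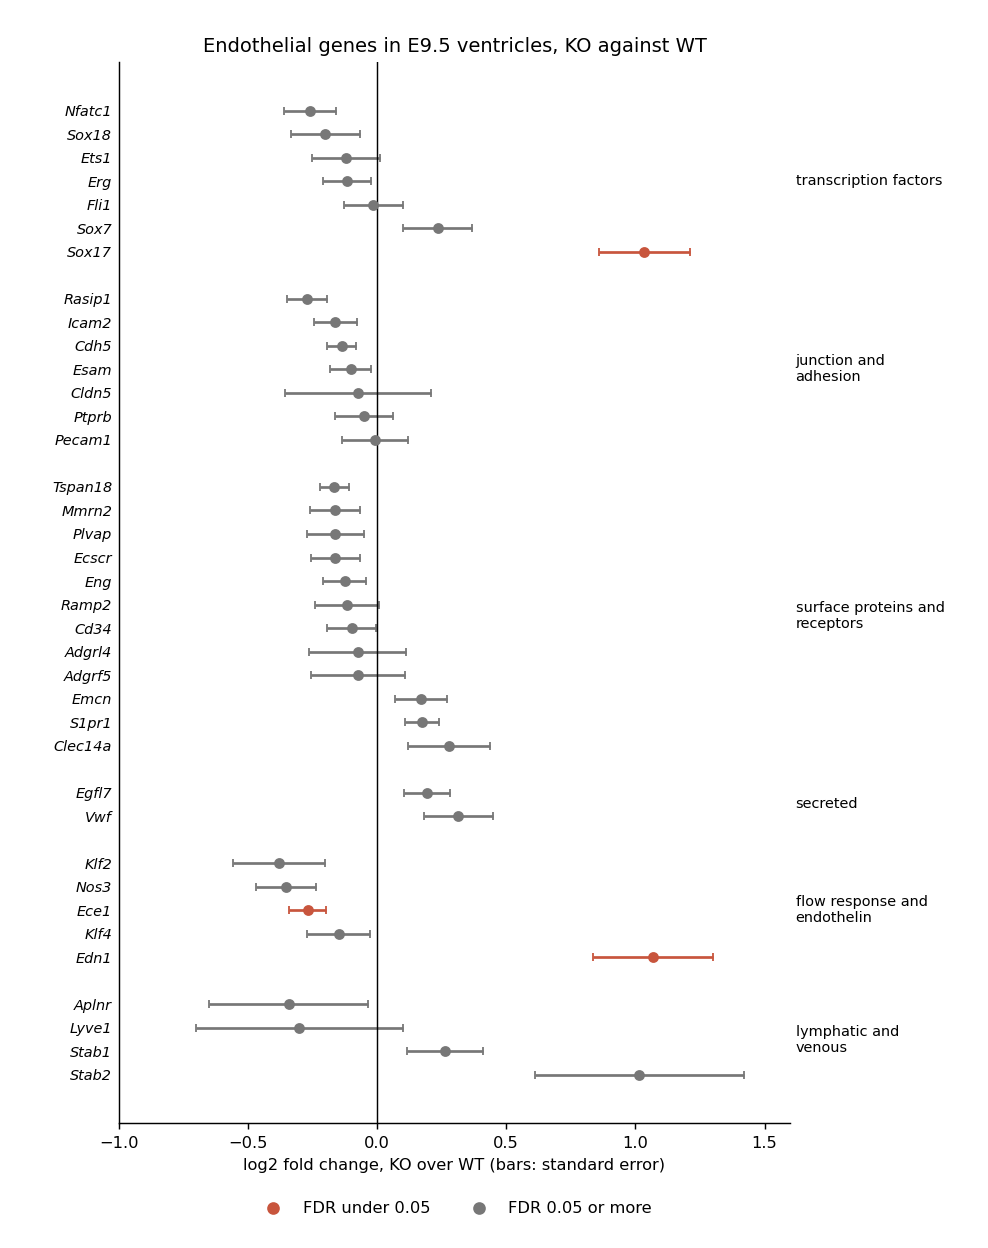
Log2 fold change of each of the 37 genes, mutant over WT, with bars for the standard error, grouped by role. Red points (FDR under 0.05 in edgeR's quasi-likelihood test) mark *Sox17* at 1.03 and *Edn1* at 1.07 on the right and *Ece1* at -0.27 on the left, and 27 of the 37 points lie left of 0.

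Among the 7 transcription factors, *Sox17* passed the test. *Sox17*, which lies at 4490931 to 4497354 on chromosome 1, minus strand (GRCm38), encodes a SoxF factor of arterial and endocardial cells. Its level was 3.82, 3.94, 4.77 and 4.33 CPM in WT replicates 1 to 4 and 11.7, 7.53, 7.70 and 7.67 CPM in mutant replicates 1 to 4. All mutant samples lay above all WT samples, and mutant replicate 1 lay well above the other mutant samples, which were close together. The fold was 2.05 (log2 1.03, SE 0.18, 95% interval 0.64 to 1.43, edgeR FDR 0.00743). The values rested on 50 to 64 counts in each WT sample and 93 to 138 in each mutant sample. Without mutant replicate 1 the log2 fold change was 0.86 (FDR 0.00248), and over all 8 fits that left out a sample it ran from 0.86 to 1.10 with an FDR of at most 0.0347.

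The other SoxF genes did not pass the test. *Sox7* was at 17.2 to 19.1 CPM in WT and at 26.8, 21.7, 17.2 and 18.1 CPM in mutant replicates 1 to 4 (log2 fold change 0.23, FDR 0.314), so that replicates 1 and 2 lay above WT and replicates 3 and 4 within or just below its range. *Sox18* was at 13.9 to 15.0 CPM in WT and at 9.33, 12.6, 14.8 and 13.6 CPM in the mutant (-0.20, FDR 0.391), with replicate 1 the lowest. In mutant replicate 1 the SoxF genes thus stood apart from WT in different directions, *Sox17* and *Sox7* above it and *Sox18* below it. None of the ETS factors passed the test, with log2 fold changes of -0.12 for *Erg* (FDR 0.488), -0.12 for *Ets1* (FDR 0.625) and -0.01 for *Fli1* (FDR 0.956). *Ets1* was at 54.1 to 65.8 CPM in WT and at 72.6, 56.0, 44.5 and 53.4 CPM in the mutant, with replicate 1 above WT and replicates 3 and 4 below it. Its log2 fold change was -0.26 without mutant replicate 1 (FDR 0.0674) and -0.02 without mutant replicate 3 (FDR 0.943). For *Erg* the 95% interval was -0.33 to 0.09. *Nfatc1*, a calcium-regulated factor confined to the endocardium within the early heart, was at 62.0, 55.7, 63.4 and 53.5 CPM in WT and at 40.2, 48.8, 52.4 and 54.6 CPM in the mutant (-0.26, SE 0.10, FDR 0.140). Its groups overlapped through mutant replicate 4, and its unadjusted p was 0.0261.

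The endothelin genes moved in opposite directions. *Edn1*, which lies at 42301476 to 42307990 on chromosome 13, plus strand, encodes the precursor of endothelin-1, a peptide that acts on neighbouring cells through the receptors Ednra and Ednrb. Its level was 8.78, 8.95, 11.0 and 7.77 CPM in WT replicates 1 to 4 and 28.3, 19.9, 12.6 and 15.8 CPM in mutant replicates 1 to 4. All mutant samples lay above all WT samples, but they spread widely, and mutant replicate 3 lay close to the highest WT sample. The fold was 2.10 (log2 1.07, SE 0.23, 95% interval 0.55 to 1.59, edgeR FDR 0.0213). Leaving out 1 of the 8 samples ended this call for WT replicates 1, 2 and 4 (log2 1.05, 1.06 and 0.997, FDR 0.0718, 0.0629 and 0.0747) and kept it for the other 5, among them mutant replicate 1 (0.82, FDR 0.00845).

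*Ece1*, which lies at 137862237 to 137965229 on chromosome 4, plus strand, encodes the membrane protease that cuts the precursor to active endothelin. It was at 311, 340, 293 and 295 CPM in WT and at 229, 265, 261 and 274 CPM in the mutant. The groups did not overlap, although the gap between the highest mutant sample and the lowest WT sample was small. The log2 fold change was -0.27 (SE 0.07, edgeR FDR 0.0478). This call was near the threshold: it was lost in 7 of the 8 fits that left out a sample, with log2 fold changes from -0.30 to -0.22 and FDR from 0.0683 to 0.129, and it was kept without mutant replicate 1 (-0.21, FDR 0.0258). The receptors did not pass the test. *Ednra*, found mainly on mesenchyme and muscle, had a log2 fold change of -0.18 (FDR 0.395), and *Ednrb*, also an endothelial receptor, of -0.39 (FDR 0.177).

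The promoter windows of this pair are shown because its genes were called in opposite directions. All windows found were searched for ACAAT, the core letters that Sox factors bind, on both strands (ATTGT on the other strand). This search was chosen after the values were seen and was 1 of 5, the others being TGACTAA for AP-1, GGAA for ETS factors, GGGCGG for SP and KLF factors and AGATAA for the Gata family. The sequences are from RefSeq on GRCm38.p6, where 24 windows of 16 of the 37 genes were found, and each covers the 250 bases before an annotated transcript start, 5′ to 3′ on the plus strand. Capitals mark ACAAT or ATTGT. The *Edn1* window is chr13:42301226-42301475, and 2 of the 4 *Ece1* windows, for the outermost and for an inner start, are chr4:137861987-137862236 and chr4:137913308-137913557.
Edn1: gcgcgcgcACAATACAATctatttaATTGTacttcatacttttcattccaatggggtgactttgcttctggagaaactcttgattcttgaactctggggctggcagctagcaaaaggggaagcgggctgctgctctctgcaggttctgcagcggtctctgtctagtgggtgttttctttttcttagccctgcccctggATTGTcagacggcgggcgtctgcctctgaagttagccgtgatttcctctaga
Ece1, outermost start: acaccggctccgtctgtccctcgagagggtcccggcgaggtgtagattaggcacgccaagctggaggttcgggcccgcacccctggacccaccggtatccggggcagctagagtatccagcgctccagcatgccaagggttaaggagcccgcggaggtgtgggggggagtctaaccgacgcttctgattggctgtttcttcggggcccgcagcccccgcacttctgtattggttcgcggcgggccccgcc
Ece1, inner start: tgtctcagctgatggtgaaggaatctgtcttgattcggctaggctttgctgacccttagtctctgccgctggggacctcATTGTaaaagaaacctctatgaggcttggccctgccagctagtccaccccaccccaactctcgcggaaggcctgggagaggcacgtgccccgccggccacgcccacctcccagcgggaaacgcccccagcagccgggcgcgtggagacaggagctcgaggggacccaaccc
ACAAT was found at least once in 6 of the 24 windows (25%), against 27.7% of the 32851 windows of the RefSeq table. These 6 included windows of *Cd34*, *Emcn*, *Clec14a* and *Erg*, which did not pass the test. The *Edn1* window held 4 matches, and 0.259% of all windows held 4 or more, a share given as a description only, since the gene and the motif were picked with the values known and 5 motifs were searched in 24 windows. The *Edn1* window also held 3 GGAA, where 54.7% of all windows held 3 or more, and 0 of the other motifs. Only the exact letters named above were searched, so other forms of the sites of these factors were not counted. The inner *Ece1* window printed here held 1 match and the other 3 *Ece1* windows held 0. The *Edn1* window had a GC content of 50.4%, near the median of 52.4% over all windows, and the 4 *Ece1* windows had 66.8%, 69.2%, 63.6% and 53.2%. These are matches of letters, and binding of a factor was not measured.

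Of the flow-response genes, *Nos3*, *Klf2* and *Klf4* were each lower on average in the mutant without passing the test. *Nos3*, endothelial nitric oxide synthase, was at 60.9, 59.7, 58.8 and 60.6 CPM in WT and at 34.3, 50.5, 51.2 and 51.9 CPM in mutant replicates 1 to 4. The WT samples lay within a narrow band, all mutant samples lay below it, and mutant replicate 1 lay far below the rest. The log2 fold change was -0.35 (SE 0.12, 95% interval -0.61 to -0.09, FDR 0.0962), and without mutant replicate 1 it was smaller, -0.23, and past the threshold (FDR 0.00672).

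*Klf2*, a zinc-finger factor that rises under laminar flow, was at 26.9, 24.5, 24.4 and 25.3 CPM in WT and at 11.95, 19.3, 24.6 and 21.7 CPM in the mutant (-0.38, SE 0.18, FDR 0.222). Mutant replicate 3 lay within the WT range, replicates 2 and 4 below it, and replicate 1 was the lowest. Without mutant replicate 1 the log2 fold change was -0.21 (FDR 0.129). The related factor *Klf4* was at 9.93 to 10.7 CPM in WT and at 11.4, 8.4, 8.34 and 9.48 CPM in the mutant (-0.15, FDR 0.496), where replicate 1 was above every WT sample and the other mutant samples below. In mutant replicate 1, *Klf2* and *Klf4* thus lay on opposite sides of WT.

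**Figure D3:**
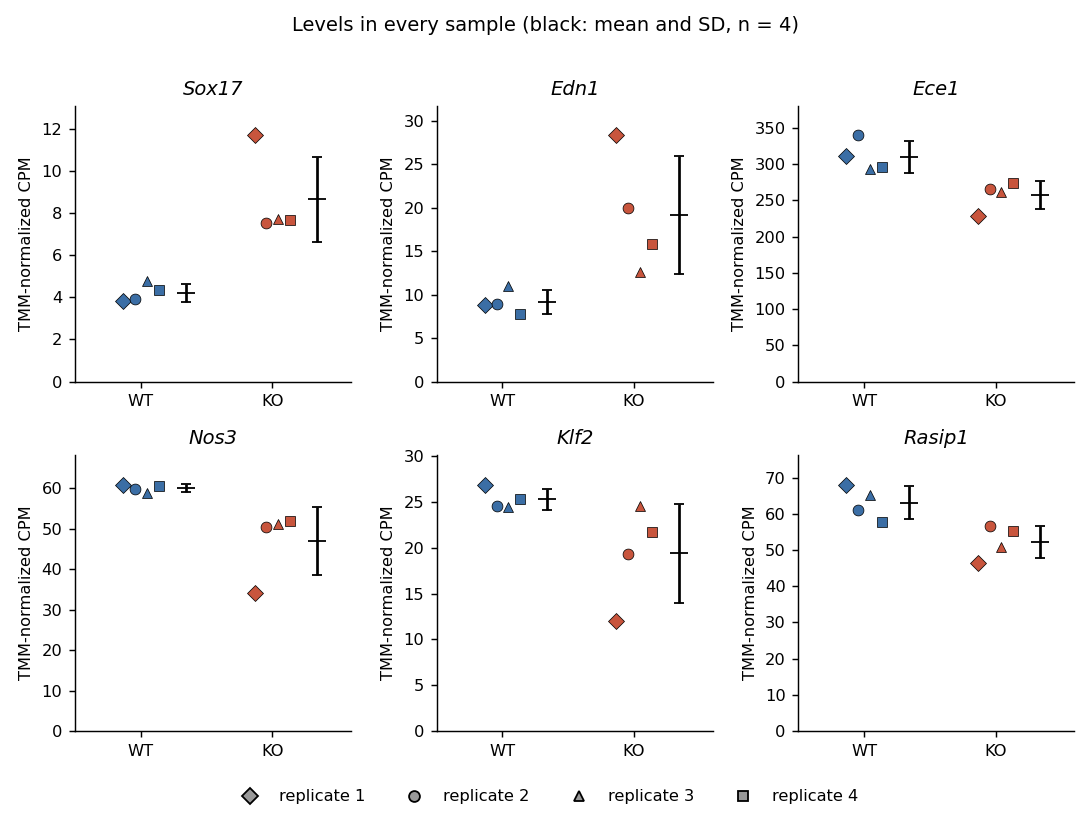
TMM-normalized CPM of 6 endothelial genes in each sample, WT in blue and mutant (KO) in red, one symbol for each replicate number, with the mean and SD of 4 samples in black. The mutant diamond (replicate 1) is the highest mutant value for *Sox17* (11.7) and *Edn1* (28.3) and the lowest for *Ece1* (229), *Nos3* (34.3), *Klf2* (11.95) and *Rasip1* (46.5).

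No gene of the 7 for junctions and adhesion passed the test. All 7 log2 fold changes lay below 0, but those of *Pecam1*, *Cldn5* and *Ptprb* changed sign when single samples were left out. *Rasip1*, a Rap1 effector that junctions and lumen formation need, was at 68.1, 61.2, 65.3 and 57.7 CPM in WT and at 46.5, 56.5, 50.8 and 55.2 CPM in the mutant (-0.27, SE 0.08, FDR 0.0636). Its groups did not overlap, and it passed the threshold without mutant replicate 1 (-0.22, FDR 0.0478). *Cdh5*, the gene of VE-cadherin, was at 168, 175, 165 and 159 CPM in WT and at 148, 151, 145 and 163 CPM in the mutant (-0.14, SE 0.06, FDR 0.169). Mutant replicate 4 lay within the WT range and the others below it. The 95% interval of *Cdh5* was -0.26 to -0.01.

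*Pecam1*, the adhesion molecule CD31, was at 77.6 to 83.0 CPM in WT and at 103, 73.3, 63.2 and 78.3 CPM in the mutant (-0.01, FDR 0.981). Replicate 1 lay above WT and replicates 2 and 3 below it, and without replicate 1 the log2 fold change was -0.16 (FDR 0.149). *Icam2*, an adhesion molecule for leukocytes, passed the threshold without mutant replicate 1 (-0.23, FDR 0.0395) and not with it (-0.16, FDR 0.264). The junction proteins *Esam* and *Ptprb*, the latter a phosphatase that acts on VE-cadherin and on the receptor Tek, had log2 fold changes of -0.10 (FDR 0.466) and -0.05 (FDR 0.823). The tight-junction gene *Cldn5* had 20 to 56 counts a sample and a log2 fold change of -0.07 (SE 0.28, FDR 0.906), with a 95% interval of -0.70 to 0.56.

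The 12 surface proteins and receptors held no gene that passed the test, with log2 fold changes from -0.17 to 0.28, of which 9 lay below 0. The lowest was *Tspan18*, a tetraspanin that regulates calcium entry, at 130, 146, 137 and 136 CPM in WT and 127, 126, 118 and 119 CPM in the mutant (-0.17, SE 0.06, FDR 0.102). Its groups did not overlap, and without mutant replicate 1 it passed the threshold (-0.18, FDR 0.0390). *S1pr1*, whose signal steadies vessel walls, was at 103, 95.6, 92.5 and 91.9 CPM in WT and 107, 108, 101 and 117 CPM in the mutant (0.17, SE 0.07, FDR 0.136). Mutant replicate 3 overlapped WT, and the other mutant samples lay above it.

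*Clec14a*, an endothelial lectin, had the highest value of this group (0.28, FDR 0.307), with 19.4 CPM in mutant replicate 4 and 12.01 to 14.5 CPM in the others against 10.6 to 14.1 CPM in WT. The sialomucins *Emcn* and *Cd34* were at 0.17 (FDR 0.324) and -0.10 (FDR 0.571). *Eng* was at -0.12 (FDR 0.390) and *Plvap* at -0.16 (FDR 0.399), and the fall of *Plvap* in mutant replicates 1 and 2 (85.7 and 108 CPM, against 121 to 129 in WT) was not shared by replicates 3 and 4 (126 CPM each). *Ramp2*, the partner of the adrenomedullin receptor Calcrl, showed the same split, with 38.5 and 45.7 CPM in mutant replicates 1 and 2 and 59.9 and 57.4 in replicates 3 and 4 around a WT range of 54.2 to 55.4 (-0.12, FDR 0.607). The adhesion receptors *Adgrf5* and *Adgrl4* were at -0.07 (FDR 0.845) and -0.08 (FDR 0.845). *Adgrf5* was at 53.2 CPM in mutant replicate 1 and at 28.4 to 33.9 CPM in the others, against 34.9 to 41.9 in WT, so that without replicate 1 it was past the threshold (-0.32, FDR 0.0297). The matrix-binding *Mmrn2* and the migration regulator *Ecscr* were both at -0.16 (FDR 0.336 and 0.330).

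The secreted factors *Egfl7* and *Vwf* were higher on average without passing the test. *Egfl7*, which guides vessel tube formation, was at 60.1 to 76.8 CPM in WT and at 73.4 to 87.8 CPM in the mutant (0.19, FDR 0.207). *Vwf*, the clotting factor stored in endothelial cells and platelets, was at 46.7, 46.4, 45.0 and 36.7 CPM in WT and at 68.4, 55.0, 43.4 and 50.6 CPM in the mutant (0.31, SE 0.13, FDR 0.178), highest in replicate 1, where the platelet markers were also highest (329 CPM against 118 to 136 in the other mutant samples). Without replicate 1 the log2 fold change of *Vwf* was 0.19 (FDR 0.224). The part of platelets in the *Vwf* values was not tested.

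None of the 4 lymphatic and venous genes passed the test. *Stab2*, a hyaluronan scavenger receptor, was at 1.07, 0.501, 1.07 and 0.879 CPM in WT and at 2.97, 2.10, 1.01 and 1.07 CPM in the mutant (1.02, SE 0.41, FDR 0.154). Its mutant samples fell into replicates 1 and 2 above WT and replicates 3 and 4 at the WT level, on 13 to 35 counts. *Stab1*, its relative that macrophages also carry, was at 69.6 to 71.8 CPM in WT and at 117, 76.5, 67.3 and 78.1 CPM in the mutant (0.26, FDR 0.304), and without mutant replicate 1 it was at 0.07 (FDR 0.464).

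*Lyve1*, a hyaluronan receptor of lymphatic cells and macrophages, was at 4.89, 2.79, 5.59 and 5.34 CPM in WT and at 7.46, 3.4, 1.94 and 2.39 CPM in the mutant (-0.30, SE 0.40, FDR 0.692). Mutant replicate 1 was the highest of all samples and replicates 3 and 4 the lowest, and without replicate 1 the log2 fold change was -0.84 (FDR 0.0624). *Aplnr* was at 4.96, 2.72, 4.93 and 4.73 CPM in WT and at 1.61, 4.63, 4.03 and 3.30 CPM in the mutant (-0.34, SE 0.31, FDR 0.538), here with replicate 1 the lowest, and without it the log2 fold change was -0.11 (FDR 0.781). Its ligand genes *Apln* and *Apela* did not pass the test (1.73, FDR 0.168, and 0.27, FDR 0.479). *Apln* stood at 11.3 CPM in mutant replicate 1, with mutant replicates 2 to 4 at 0.989 to 3.55 and WT at 0.879 to 2.14.

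Leaving out mutant replicate 1 raised the count of endothelial genes past the threshold from 3 to 8 of 37 (21.6%). Over all genes the share rose from 8.62% to 17.2% of those tested. The 8 genes were *Sox17* and *Edn1*, higher, and *Ece1*, *Nos3*, *Rasip1*, *Tspan18*, *Icam2* and *Adgrf5*, lower, and the 6 lower genes stood beside 7.89% of all genes called lower in that fit. Without mutant replicate 1 the log2 fold changes of 7 more genes, not past the threshold in either fit, shrank by over 1.5 times, to 0.67 for *Stab2*, 0.10 for *Sox7*, 0.10 for *Emcn*, -0.08 for *Sox18*, -0.06 for *Plvap*, -0.05 for *Eng* and -0.01 for *Ramp2*. Those of *Klf4* (-0.25), *Adgrl4* (-0.18), *Ptprb* (-0.17) and *Fli1* (-0.10) grew by over 1.5 times. Over the 37 genes, the correlation of GC content with the log2 ratio to the WT mean was -0.452 in mutant replicate 1, and -0.103, 0.132 and -0.166 in mutant replicates 2, 3 and 4, and it ran from -0.278 to 0.167 in the WT samples (Pearson's r across genes of the same library, given as a description, with no test). Over all genes the picture was another one, with Spearman's rho of -0.0905 in mutant replicate 1, 0.248 to 0.409 in mutant replicates 2 to 4 and -0.0739 to 0.167 in WT. The relation in mutant replicate 1 had exceptions, since *Cd34* (42.8% GC) lay below WT there (-0.15 on the log2 scale), and *Stab1* (57.3% GC) and *Vwf* (56.5% GC) lay above it (0.73 and 0.65). The median GC content of the 37 genes was 52.6%, against 49.6% for all genes tested that had a value.

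**Figure D4:**
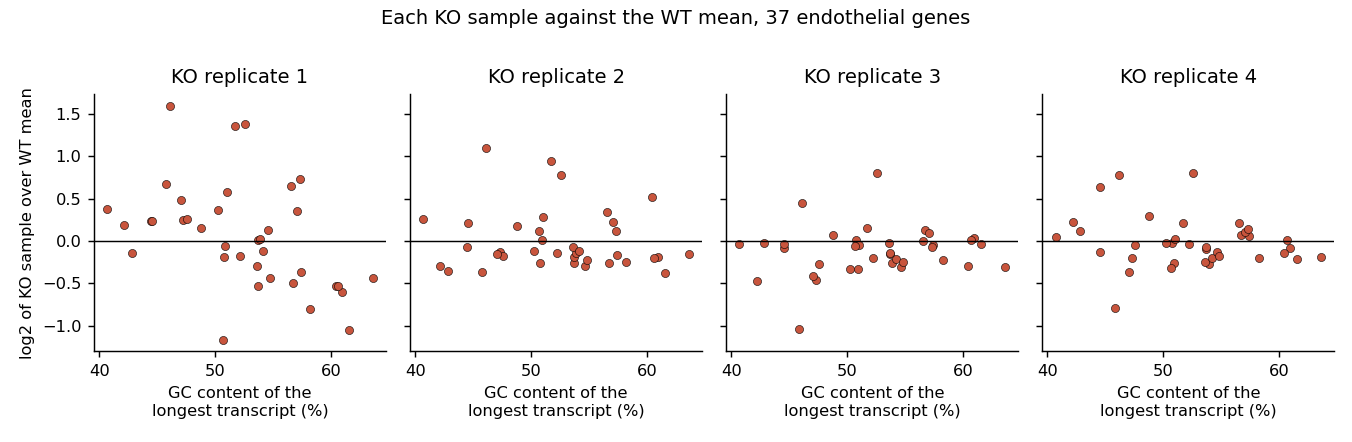
Log2 ratio of each mutant (KO) sample to the WT mean against the GC content of the longest transcript, one point for each of the 37 genes and one panel for each sample. In replicate 1 the points fall from left to right (r = -0.452), in replicates 2 to 4 r lies between -0.166 and 0.132, and the WT samples, not drawn, had r from -0.278 to 0.167.

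A fit that corrected each sample for GC content and transcript length placed 9 of the 37 genes past the threshold (24.3%, against 7.90% of all genes tested). *Sox17* and *Edn1* were higher as before (0.97 and 1.08, FDR 0.0113 and 0.0161), and 7 genes were lower, against 3.85% of all genes. These were *Klf2* (-0.55, FDR 0.0407), *Nos3* (-0.50, FDR 0.0120), *Rasip1* (-0.43, FDR 0.0104), *Ece1* (-0.37, FDR 0.00725), *Plvap* (-0.32, FDR 0.0295), *Eng* (-0.26, FDR 0.0371) and *Tspan18* (-0.24, FDR 0.0270). After this correction the correlation of GC content with the log2 fold change over the 37 genes was -0.401, against -0.241 without it and -0.0452 when mutant replicate 1 was left out, so the corrected values held a stronger relation to GC content than the uncorrected ones. *Sox17*, *Edn1* and *Ece1* were past the threshold in all 3 of these fits. In the 8 fits that left out 1 sample, however, *Sox17* was called in 8, *Edn1* in 5 and *Ece1* in 1.

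**Figure D5:**
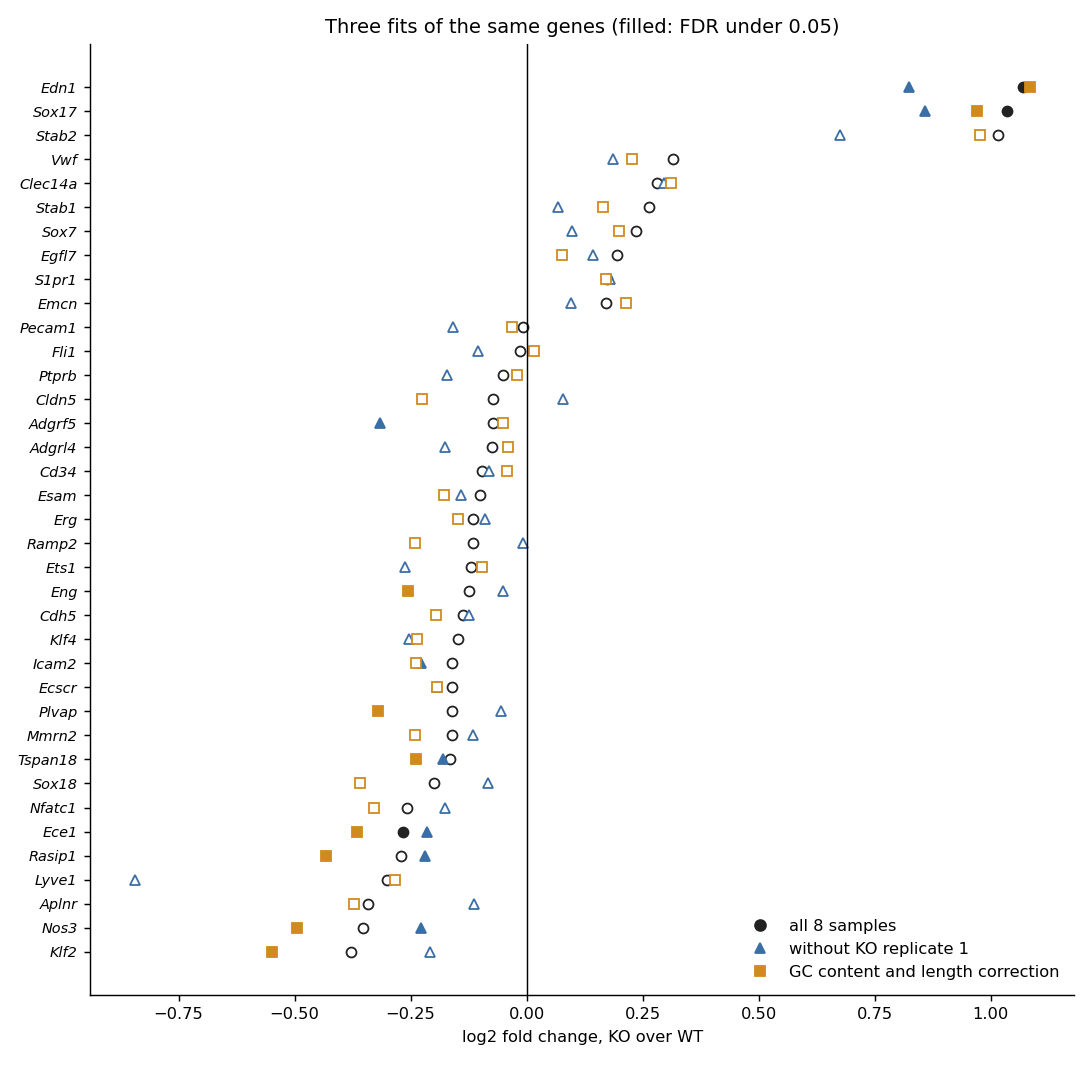
Log2 fold change of each of the 37 genes, mutant over WT, in 3 fits: all 8 samples (black circles), without mutant (KO) replicate 1 (blue triangles) and corrected for GC content and length (orange squares), where filled symbols have an FDR under 0.05. Filled symbols number 3, 8 and 9 in these fits, and *Sox17*, *Edn1* and *Ece1* are filled in all 3.

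Other genes of the same cells were read from lists outside the 37, which were also chosen with earlier results of these data known. Of 30 further endothelial genes tested, 5 were lower and 1 was higher (20% called, against 8.62% of all genes tested). *Cgnl1*, a protein of tight and adherens junctions, was at 394 to 414 CPM in WT and 292 to 319 CPM in the mutant (-0.41, SE 0.05, FDR 0.00185). *Tmem100*, a target of BMP9 and ALK1 signalling, was at 8.25 to 8.88 and 4.53 to 5.60 CPM (-0.72, FDR 0.00555), and *Mef2c*, a factor that cardiomyocytes use as well, at 141 to 162 and 99.9 to 119 CPM (-0.42, FDR 0.00718). None of these groups overlapped. The angiopoietin receptor *Tek*, on which Ptprb acts, was also lower (-0.34, FDR 0.0310), as was its ligand *Angpt1* (-0.39, FDR 0.0382). *Tal1*, a factor of endothelium and of blood progenitors, was the gene that rose (1.64, FDR 0.00303), with mutant values of 157, 62.7, 113 and 114 CPM that were highest in replicate 1 and lowest in replicate 2, as hemoglobin was, and the part of blood cells in it was not tested.

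Of 12 arterial genes *Jag1*, a Notch ligand, was lower (-0.51, FDR 0.0124), or 8.33% of the list. Of 9 venous and lymphatic genes tested none passed. An unadjusted p under 0.05 was found for 3 of these 9, beside 3607 of all 14451 genes tested. Of 17 further flow-response genes tested, the stretch-activated channel *Piezo1* was higher, at 171 to 193 CPM in WT and 234 to 252 CPM in the mutant (0.42, SE 0.06, FDR 0.00294, 5.88% of the list), and it is also expressed in red cells. Among 22 tested ligands, receptors and partners of the 37 genes, 3 were higher and *Angpt1* was the one lower (18.2% called). All of these shares stand beside the 8.62% over all genes, as descriptions of lists chosen with earlier results known. *Spns2*, the exporter that supplies sphingosine-1-phosphate to S1pr1, was at 18.8, 25.2, 27.8 and 21.5 CPM in WT and at 88.8, 44.6, 79.6 and 81.1 CPM in the mutant (1.66, FDR 0.00224), with the lowest mutant value in replicate 2, where the erythroid sum was also lowest. *Adm2*, a ligand of receptors that hold Ramp proteins, was at 0.153 to 0.904 and 1.48 to 5.60 CPM (2.52, SE 0.59, FDR 0.0296), and the calcitonin receptor *Calcr* at 1.37 to 2.43 and 2.80 to 10.3 CPM (1.75, FDR 0.0290). *Calcrl*, the receptor that Ramp2 serves, did not pass the test (-0.25, FDR 0.115). The adrenomedullin gene *Adm* did not pass it either (1.01, FDR 0.313). *Adm* was at 46.2 CPM in mutant replicate 1, at 5.93 to 12.4 CPM in the other mutant samples and at 6.38 to 12.4 CPM in WT.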

How the data were processed

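Poly(A) RNA of 4 WT and 4 Nrg-1flox;Tie2-Cre ventricle samples was sequenced in single reads of 60 bases. Gene-level expected counts from RSEM were deposited by the authors, estimated from aligned reads and scaled neither for library size nor for gene length. The submitters' processing notes name cutadapt, RSEM 1.3.1 and GRCm38. Neither the aligner nor the strand setting was given in the sources used here. RSEM shares reads that fit several genes, so counts of near-identical or overlapping genes are uncertain. Expected counts were rounded. Of 53465 gene identifiers 53274 were given a symbol from GENCODE M21 (GRCm38) or the file. Differences were tested with edgeR 4.0.16 in R 4.3.3 (TMM, filterByExpr by genotype, quasi-likelihood test, Benjamini-Hochberg adjustment over 14451 genes, FDR threshold 0.05). SE is the absolute log2 fold change over the root of F, and intervals cover 95%. CPM values are TMM-normalized, and sample ratios add 0.5 CPM before the log2. Correlations with GC content use the longest transcript, and 14434 of 14451 genes had a value.

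The members and lists were chosen with earlier results of these data known. The text accounts for all 37 members, *Nrg1*, at most 3 genes in each direction of every other list, and some partners of members. No samples of a group agreed within sampling noise (lowest chi-square per degree of freedom 3.74), so each counted once. Other fits used limma-voom (limma 3.58.1), DESeq2 1.42.0, upper-quartile normalization, no filter on low counts beyond at least 1 count over all samples, at least 10 counts in every sample, leaving out hemoglobin and mitochondrial genes, a block for replicate number, a correction for GC content and length (splines with 5 degrees of freedom each, prior count 2), both together, removal of 15 members also known in blood cells, and each sample left out in turn. The fit was tested on simulated data. Counting error limits genes with few counts. Figures were drawn with matplotlib 3.10.9 in Python 3.11.15.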

Additional observations from a re-analysis of the deposited data

Results flagged for a closer look

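Within the groups of 4 samples, the gap of the most distant sample to its neighbour, as a share of the whole range of the group, was compared with Dixon's 95% critical value. Over the 37 genes and both genotypes 7 of 74 groups passed it, where chance gives about 1 in 20 groups, or 3.7. Mutant replicate 1 was the distant sample for *Sox17* (0.960, the highest), *Nos3* (0.921, the lowest) and *Fli1* (0.831, the highest). In WT the distant samples were replicate 3 for *Sox7* (0.907), replicate 2 for *Aplnr* (0.896), replicate 1 for *Erg* (0.858) and replicate 4 for *Vwf* (0.836), 1 gene for each sample.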

How the results depend on the processing

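*Sox17* was past the threshold under every alternative run. DESeq2 also placed *Rasip1* past it (2 endothelial genes lower, 10.8% called against 11.2% of all genes), and without hemoglobin and mitochondrial genes *Ece1* was lost (0 lower, *Ece1* FDR 0.0563). No label pairs the samples by replicate number. The correlation of same-numbered samples ran from -0.100 to 0.023, with no pair over 0.1. These values gave no sign of a pairing but cannot exclude a weak one. With a block for replicate number, 616 genes were called (398 higher, 218 lower, 4.26% of all tested) and 1 endothelial gene, *Sox17* (1 higher, 0 lower, 2.70%). Block and GC correction together gave 568 genes (325 higher, 243 lower, 3.93% of all tested) and 5 endothelial genes (13.5%), 3 of them lower. The GC correction gave 9 endothelial genes, 7 of them lower, with a median log2 fold change of -0.178, and -0.179 with the block. A GC correction without mutant replicate 1, chosen after seeing the data, gave 13 endothelial genes, 11 of them lower (35.1%, against 11.8% of all genes), and 890 genes lower in all, and moved the share of higher calls from 59.4% to 48.6%.

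With 1 sample left out, all genes called ran from 509 to 2523, those higher from 335 to 1368 and those lower from 174 to 1155, and endothelial genes called from 1 to 8, higher from 1 to 2 and lower from 0 to 6. The highest of these counts came without mutant replicate 1, a count that other fits shared for the higher endothelial genes. Small log2 fold changes changed sign: *Fli1* with the GC correction (0.0165), also with the block (0.0181), *Pecam1* without hemoglobin and mitochondrial genes (0.00146), and *Cd34* (0.0166), *Egfl7* (-0.0109) and *Stab1* (-0.0585) with the GC correction without mutant replicate 1. With 1 sample left out, signs changed for *Fli1* (-0.104 to 0.0536), *Pecam1* (-0.158 to 0.0888), *Cldn5* (-0.381 to 0.0792), *Ptprb* (-0.171 to 0.0197), *Adgrf5* (-0.316 to 0.0275) and *Adgrl4* (-0.189 to 0.0482). None of these genes was called in the reported fit, and the cause was not tested. Low counts, as for *Stab2*, limit what can be seen.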
